A study of Mus musculus with 6 samples.

Results

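The smooth muscle contractile genes and their transcriptional regulators serum response factor (Srf) and myocardin (Myocd) were followed in the hearts of Ppif-/- and WT mice. The 10 genes were Tagln, Myh11, Cnn1, Acta2, Actg2, Smtn, Mylk, Myl9, Myocd and Srf, and each was taken from probe sets of the array that carry no other gene symbol. Every one of the 10 genes had exactly 1 such probe set, so that 10 of the 35557 probe sets in the table, and of the 23410 with a gene symbol that were tested, belong to the set. The arrays were Affymetrix Gene 1.0 ST arrays, which read a transcript through many probes that are summarised as 1 log2 value per probe set. They held 3 hearts of Ppif-/- mice and 3 hearts of WT mice, all 8 weeks old and labelled C57BL/6. Ppif-/- mice lack the gene in every cell of the body, and per the labels the knockout came from a Sv129 background and was crossed back to C57BL/6, after a number of crosses that the labels leave unsaid. The series was set up to find transcripts that differ ahead of myocardial dysfunction.

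Smooth muscle contracts when calcium and calmodulin activate myosin light chain kinase (Mylk), which phosphorylates the regulatory light chain of smooth muscle myosin. In the heart, the cells that carry this machinery line the coronary arteries and arterioles, and pericytes share part of it. Most of its genes are driven by SRF, which binds DNA elements called CArG boxes and acts through partner proteins. Myocardin and the myocardin-related factors (MRTF) direct SRF to contractile and cytoskeletal genes, whereas the ternary complex factors (TCF) direct it to immediate early genes. Srf and Myocd are also expressed in cardiomyocytes, which make up most of the heart's mass.

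Promoter sequences show where CArG boxes lie in the set. A RefSeq table of promoters (build GRCm38.p6, 250 bases before to 50 bases after an annotated start) held 6 of the 10 genes, namely Myl9, Cnn1, Smtn, Mylk, Srf and Acta2; Tagln, Myh11, Actg2 and Myocd were not among them. The 3 windows below are shown because they are the ones among the 6 that hold a CArG box or a near match, and because Myl9 was called in Ppif-/- hearts while Srf and Acta2 were not. They come from chr2:156775214-156775513 on the plus strand (Myl9), chr17:46556113-46556412 on the minus strand (Srf) and chr19:34255324-34255623 on the minus strand (Acta2). Capitals mark CArG boxes and sites that depart from one by 1 letter of the A or T run.
Myl9: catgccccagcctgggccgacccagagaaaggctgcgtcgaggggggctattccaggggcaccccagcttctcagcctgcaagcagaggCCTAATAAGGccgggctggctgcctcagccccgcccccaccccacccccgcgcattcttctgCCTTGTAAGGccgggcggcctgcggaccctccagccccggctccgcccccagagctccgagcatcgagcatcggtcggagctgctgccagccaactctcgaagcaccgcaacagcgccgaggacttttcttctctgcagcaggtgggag
Srf: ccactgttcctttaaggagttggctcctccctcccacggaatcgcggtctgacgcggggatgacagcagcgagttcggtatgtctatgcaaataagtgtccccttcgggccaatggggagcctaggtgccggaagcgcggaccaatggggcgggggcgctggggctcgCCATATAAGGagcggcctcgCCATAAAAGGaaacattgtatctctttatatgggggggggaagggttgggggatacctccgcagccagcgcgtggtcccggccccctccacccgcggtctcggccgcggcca
Acta2: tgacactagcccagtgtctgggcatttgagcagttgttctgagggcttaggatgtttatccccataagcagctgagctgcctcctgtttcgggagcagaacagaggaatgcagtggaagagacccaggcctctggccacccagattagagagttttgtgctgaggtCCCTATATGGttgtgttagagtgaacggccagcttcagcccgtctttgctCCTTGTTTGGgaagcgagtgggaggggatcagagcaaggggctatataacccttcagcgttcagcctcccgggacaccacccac
In Myl9 the CArG box CCTAATAAGG begins 161 bases before the start, and a near match, CCTTGTAAGG, begins 99 bases before it. Srf holds a pair of exact boxes, CCATATAAGG and CCATAAAAGG, which begin 82 and 62 bases before its start. Acta2 holds no exact box, only the near matches CCCTATATGG and CCTTGTTTGG, which begin 84 and 34 bases before the start. Exact boxes were present in 2 of the 6 windows, and in 1.63% of the 32851 promoters of the table. With 1 mismatch in the A or T run allowed, the counts were 3 of 6 and 9.98%. The motif GGAATG, bound by TEAD factors, was found on either strand in 3 of the 6 windows (Smtn, Mylk and Acta2) and in 14.7% of all promoters, with 0 overlaps with a CArG box or near match in the 6. These matches describe the letters of the windows only. The Mylk window (chr16:34784700-34784999, plus strand) lies inside the gene, whose span begins at 34745199. The Srf window also lies inside its gene, whose span reaches 46558267 on the minus strand. The outermost starts of these genes were therefore not searched.

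Ppif itself was read first as a check of the labels. It stood at 6.00, 6.25 and 6.44 in Ppif-/- hearts and at 11.44, 11.28 and 11.49 in WT hearts (log2), a difference of -5.17 ± 0.12 (SE; limma adjusted p = 2.97e-06). Array medians lay between 6.03 and 6.11, and having only 3 arrays per genotype bounds how precise any value can be.

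The contractile genes Myl9 and Tagln fell in Ppif-/- hearts, Myh11 and Cnn1 lay lower by similar amounts without passing the test, and Acta2, Actg2 and Mylk differed by 0.16 or less on the log2 scale. Smtn (0.25), Myocd (0.18) and Actg2 (0.01) had differences above 0, and none of these passed. With limma adjusted over all tested probe sets, 2 of the 10 members were lower and 0 higher at a threshold of 0.05, against a background of 1.09% of all tested probe sets called, 0.461% lower and 0.624% higher. At an unadjusted p under 0.05, 5 members lay lower and 1 higher (background 12.9% in either direction, 6.81% lower and 6.10% higher). All 3 Ppif-/- hearts lay below all 3 WT hearts for 6 members and above them for 1, where the groups of 19.8% of tested probe sets did not overlap, 10.6% lower and 9.21% higher. The median difference over the 10 members was -0.23, and the members ranged between -0.72 and 0.25; over all tested probe sets the median lay within 0.01 of 0. In whole hearts, fewer smooth muscle cells, less RNA in each of them and a change in other expressing cells cannot be told apart.

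**Figure D1:**
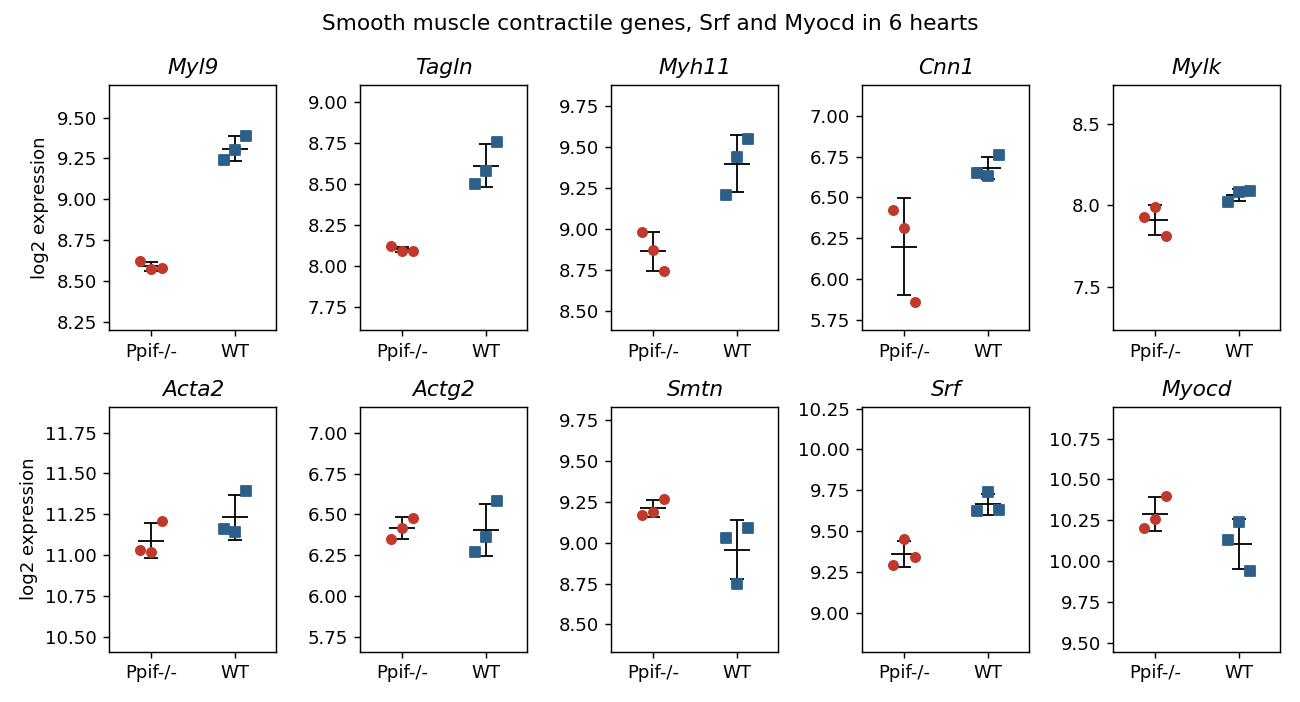
Log2 expression of the 10 members in Ppif-/- hearts (red circles) and WT hearts (blue squares), 3 each, with the mean and SD in black; every panel spans the same range of log2 units. For Myl9 the Ppif-/- hearts sit between 8.57 and 8.62, all below the WT hearts at 9.24 to 9.39, whereas for Actg2 and Acta2 the groups overlap.

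Myl9, the regulatory light chain of smooth muscle and non-muscle myosin, had the smallest p of the set. It measured 8.62, 8.57 and 8.58 in Ppif-/- hearts, against 9.24, 9.30 and 9.39 in WT hearts (log2). The groups were tight and stood 0.62 apart at their nearest hearts. The fit gave -0.72 ± 0.07 (SE; 95% interval -0.88 to -0.56), which is a 1.65-fold lower level (limma adjusted p = 0.00321), and placed the gene 49th by p among all tested probe sets. Its call held under each of the 16 other ways of fitting or choosing hearts, with an adjusted p of at most 0.0241.

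Tagln encodes transgelin (SM22), an actin-associated protein widely used as a smooth muscle marker. It stood at 8.12, 8.09 and 8.09 in Ppif-/- hearts and at 8.50, 8.58 and 8.76 in WT hearts. The Ppif-/- hearts were nearly identical, and the WT hearts were spread over 0.26 with each of them higher. The difference was -0.51 ± 0.08, a 1.43-fold lower level (limma adjusted p = 0.0332). This call was lost without any 1 heart, whichever it was (adjusted p = 0.0537 to 0.122), and when probe sets with no gene symbol were tested too (0.104), while the difference stayed between -0.57 and -0.44.

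Myh11, the smooth muscle myosin heavy chain and the most cell-type-restricted protein of the set, measured 8.98, 8.87 and 8.74 in Ppif-/- hearts, against 9.21, 9.44 and 9.55 in WT hearts. The groups did not overlap, although both were more spread than for Myl9. Its difference of -0.53 ± 0.11 was as large as that of Tagln and did not pass (limma adjusted p = 0.0701). It passed with a variance trend (adjusted p = 0.0295) and on the brighter probe sets alone (0.0363). In the 14 other alternative fits it did not pass, with an adjusted p of up to 0.215 when 1 heart was left out.

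Cnn1 encodes calponin, an actin-binding protein of differentiated smooth muscle that restrains the myosin ATPase. Its values were 6.42, 6.31 and 5.86 in Ppif-/- hearts and 6.65, 6.63 and 6.76 in WT hearts. All Ppif-/- hearts were lower, and heart 3 lay far below the other two. The difference was -0.48 ± 0.14 and did not pass (limma adjusted p = 0.186). Without Ppif-/- heart 3 it was -0.32, the smallest value that leaving out a heart gave.

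The kinase gene Mylk gave 7.93, 7.99 and 7.81 in Ppif-/- hearts and 8.02, 8.08 and 8.09 in WT hearts. The groups were only 0.03 apart, and the difference of -0.16 ± 0.07 did not pass (limma adjusted p = 0.428; 95% interval -0.33 to 0.01). That interval holds both no difference in the kinase transcript and a decrease of 0.33, which is well under the difference of Myl9, the light chain that the kinase acts on.

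The smooth muscle actins showed no such gap. Acta2, the alpha actin of vascular smooth muscle, measured 11.03, 11.02 and 11.21 in Ppif-/- hearts, against 11.16, 11.14 and 11.39 in WT hearts. The groups overlapped, with heart 3 the highest in each genotype. The difference was -0.14 ± 0.09 (95% interval -0.36 to 0.08; limma adjusted p = 0.585). Actg2, the gamma actin best known from visceral smooth muscle, stood at 6.35, 6.42 and 6.48 in Ppif-/- hearts and at 6.27, 6.36 and 6.58 in WT hearts. Its difference was 0.01 ± 0.09 (95% interval -0.20 to 0.23), and its sign changed between fits (limma adjusted p = 0.974).

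Whether the genes that lay lower differed from the actins was tested within arrays, for Myl9, Tagln, Myh11, Cnn1 and Srf against Acta2 and Actg2, as 10 pairs chosen after the values were seen. The log2 ratio of Myl9 to Acta2 lay 0.71 to 0.49 below the WT mean in Ppif-/- hearts and within 0.08 of that mean in WT hearts, a difference of -0.58. For Tagln against Acta2 the difference was -0.37 and for Myh11 against Acta2 it was -0.39, with no overlap between genotypes. In an exact 2-sided permutation test, 8 of the 10 pairs reached p = 0.1, the smallest p that 3 against 3 hearts allow, which is 0.125 after adjustment over the pairs. In the same exact test the ratios of Cnn1 and of Srf to Acta2 gave p = 0.2 and 0.3, with differences of -0.34 and -0.16. This test cannot reach 0.05 with 3 against 3 hearts, and no other test of the ratios was run. Both sides of each pair were picked by their values, and the pairs share Acta2 and Actg2, so they are not separate tests. Actg2 itself differed by 0.01, so a ratio to it nearly repeats the difference of the other gene. The count of pairs at the smallest p therefore lends no support to a difference from the actins.

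**Figure D2:**
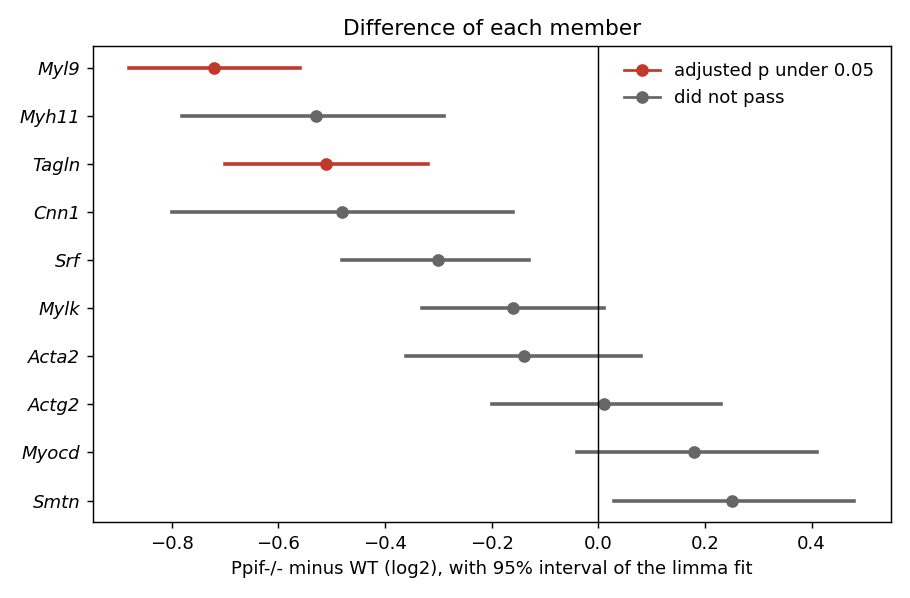
Difference of each member between Ppif-/- and WT hearts (points, log2) with the 95% interval of the limma fit (bars); red marks an adjusted p under 0.05. Myl9 lies at -0.72 and Tagln at -0.51, and the intervals of Mylk, Acta2, Actg2 and Myocd span 0.

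Smoothelin (Smtn), a cytoskeletal protein of contractile smooth muscle cells, measured 9.17, 9.19 and 9.27 in Ppif-/- hearts, against 9.03, 8.75 and 9.09 in WT hearts. The groups stood 0.08 apart, with WT heart 2 the lowest. The difference of 0.25 ± 0.10 did not pass (limma adjusted p = 0.331), and it was 0.15 without WT heart 2.

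Among the regulators, Srf stood at 9.29, 9.45 and 9.34 in Ppif-/- hearts and at 9.62, 9.74 and 9.63 in WT hearts. Every Ppif-/- heart was lower, by 0.17 at the nearest. The difference of -0.30 ± 0.07 (a 1.23-fold lower level; 95% interval -0.48 to -0.13) did not pass in any fit (limma adjusted p = 0.135, and 0.0556 at the lowest among the alternatives). Myocd, the coactivator that directs SRF to muscle genes, measured 10.20, 10.26 and 10.40 in Ppif-/- hearts and 10.13, 10.24 and 9.94 in WT hearts. Its groups overlapped, and the difference was 0.18 ± 0.10 (95% interval -0.04 to 0.41; limma adjusted p = 0.476).

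Read heart by heart, the median member lay lower in each Ppif-/- heart than in any WT heart. The median deviation of the 10 members from the WT mean was -0.23, -0.21 and -0.29 in Ppif-/- hearts 1, 2 and 3, against -0.06, -0.02 and 0.11 in WT hearts 1, 2 and 3. Myl9 was the member with the lowest deviation in Ppif-/- hearts 1 and 2 (-0.68 and -0.74), and Cnn1 in heart 3 (-0.82). Smtn was the highest in all 3 Ppif-/- hearts, at 0.21, 0.23 and 0.32. Among the WT hearts, heart 3 held the highest value of all 6 hearts for 7 of the 10 members. Without it Tagln differed by -0.44 and Myh11 by -0.46, and without WT heart 1 by -0.57 and -0.63, while the median over the members was -0.23 without WT heart 3 and -0.25 without WT heart 1.

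**Figure D3:**
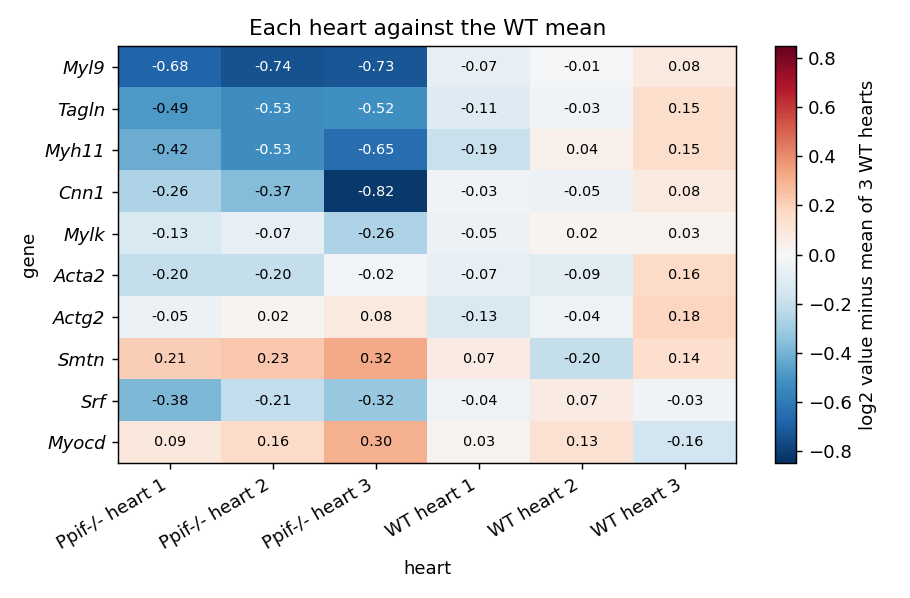
Log2 value of each member in each heart minus the mean of the 3 WT hearts (colour and printed number; genes in rows, hearts in columns). Myl9, Tagln, Myh11, Cnn1 and Srf are at -0.21 or lower in all 3 Ppif-/- hearts, and Smtn and Myocd are above 0 in them.

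Likeness between genes was measured as the root mean square distance between their log2 values over the 6 hearts, each centred on its own mean. This distance includes the difference between genotypes, so genes with similar differences tend to lie near each other. It is therefore no separate evidence that genes change together. Beside Myh11, whose profile was compared with 19928 genes outside the set, Tagln lay at a distance of 0.0751, and 3 of those genes were nearer. Myl9 lay at 0.126 and Cnn1 at 0.136, with 46 and 86 genes nearer, while Acta2, at 0.244, had 2838 nearer. The 5 outside genes most like Myh11 began with Prnp, the prion protein (0.0573), Apobec3, an antiviral cytidine deaminase (0.0657), and the growth factor Bmp2 (0.0715). Next came the probe set listed as Mir382 (0.0819) and Tnip1, an inhibitor of NF-kappaB signalling (0.0893). Mir382 read 3.18 to 4.06, below the median of every array. The 5 outside genes most like Myl9 were Mrm3, a methyltransferase of mitochondrial ribosomal RNA (0.0666), the lipase Abhd3 (0.0666), Kcnj11, the pore of the ATP-sensitive potassium channel (0.0757), the diacylglycerol kinase Dgke (0.0812) and 4430402I18Rik (0.0818).

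Other genes of smooth muscle, mainly contractile but with some outside that apparatus such as Kcnmb1, Itga8 and Aoc3, were mostly not called. Of 21 measured, 1 was lower and 0 higher past the threshold in limma, against 0.461% and 0.624% of all tested probe sets. An unadjusted p under 0.05 was reached by 4 that lay lower and 1 that lay higher (background 6.81% and 6.10%). All Ppif-/- hearts lay below all WT hearts for 4 genes and above them for 2 (background 10.6% and 9.21%). The median difference was -0.05. The 1 that fell was Pdlim3, which encodes an alpha-actinin-binding LIM protein that cardiac and skeletal muscle also express. It measured 8.02, 8.14 and 8.01 in Ppif-/- hearts, against 9.76, 10.62 and 9.51 in WT hearts, with no overlap and a wide WT spread. The difference was -1.91 ± 0.25, a 3.76-fold lower level (limma adjusted p = 0.0134), and the call was lost without Ppif-/- heart 2 or 3 (adjusted p = 0.0547 and 0.078) or when probe sets with no symbol were included (0.0693). Next by p was Synpo2, an actin-bundling protein of smooth and striated muscle, at 9.71, 9.67 and 9.52 in Ppif-/- hearts and 9.98, 10.30 and 9.97 in WT hearts (-0.45 ± 0.11, limma adjusted p = 0.118).

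Cytoskeletal targets of MRTF and SRF that are not restricted to smooth muscle had a median above 0. Of 19 measured, 0 passed in limma, and the median was 0.10. An unadjusted p under 0.05 was reached by 4 that lay higher and 1 that lay lower (background 6.10% and 6.81%). Myh9, a non-muscle myosin heavy chain, stood at 9.99, 9.77 and 9.84 in Ppif-/- hearts, against 9.52, 9.27 and 9.62 in WT hearts (0.39 ± 0.11, adjusted p = 0.17). The other probe set of Myh9 differed by 0.63 and did not pass either. Tpm4, a tropomyosin of non-muscle cells, differed by 0.42 ± 0.14 (adjusted p = 0.244), with every Ppif-/- heart higher.

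Immediate early targets of the TCF arm of SRF rose in part. Of 16 measured, 6 rose and 0 fell past the threshold in limma, against 0.624% and 0.461% of all tested probe sets. For 12 genes all Ppif-/- hearts lay above all WT hearts (background 9.21%), and the median was 0.53. The zinc finger factors Egr1 (2.48 ± 0.10, adjusted p = 4.21e-05) and Egr2 (2.48 ± 0.15, 0.000406), the nuclear receptor Nr4a1 (2.15 ± 0.10, 8.38e-05) and the phosphatase Dusp1 (0.95 ± 0.10, 0.00421) had the smallest p-values.

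**Figure D4:**
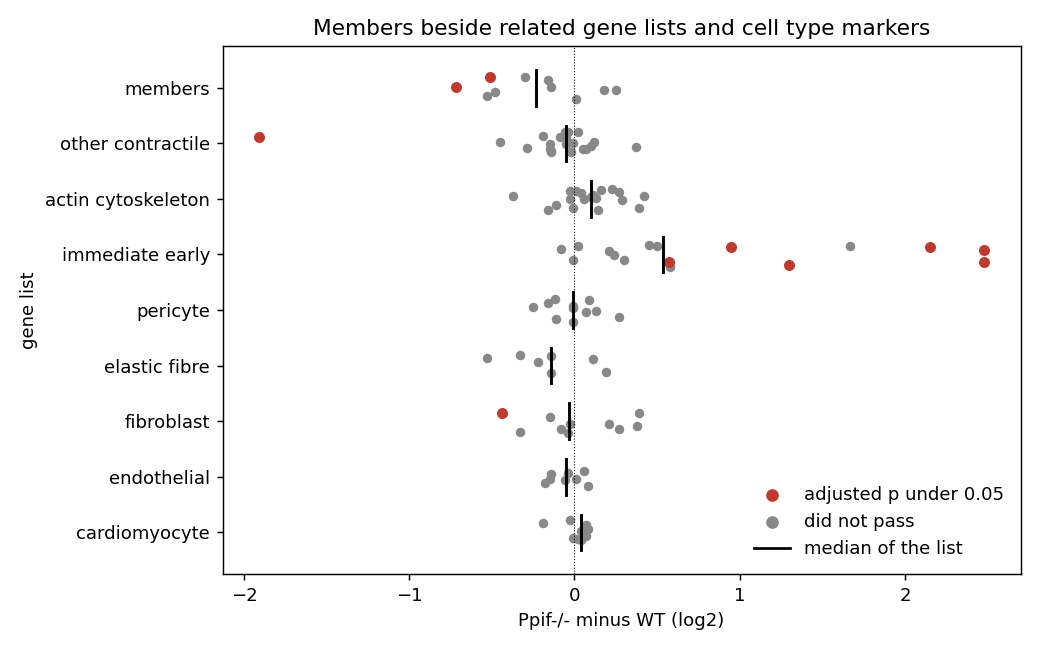
Difference between Ppif-/- and WT hearts (log2, horizontal axis) for every measured gene of the 10 members, 3 related gene lists and 5 lists of cell type markers; red marks an adjusted p under 0.05 and the vertical bars are the list medians. The members have a median of -0.23, the elastic fibre genes one of -0.14 and the immediate early genes one of 0.53. The medians of the pericyte, fibroblast, endothelial and cardiomyocyte markers lie within 0.05 of 0.

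Markers of other cells of the vessel wall and the heart were read beside these results. For the counts below, the background over all tested probe sets was 1.09% called in limma and 12.9% at an unadjusted p under 0.05. Of 11 pericyte markers, 0 passed in limma, and 1 lay higher and 1 lower at an unadjusted p under 0.05. Their mean log2 level per heart was 8.88 to 9.00 in Ppif-/- hearts and 8.89 to 8.98 in WT hearts, and their median difference was -0.01. Rgs5, a regulator of G protein signalling that marks pericytes, lay higher (0.27 ± 0.07, adjusted p = 0.129) and the peptidase Anpep lower (-0.25 ± 0.07, 0.188), each without overlap between genotypes. Rgs5 passed with a variance trend (0.0193) and among the brighter probe sets (0.0469), and not in its 14 other alternative fits.

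Elastic fibre genes of the vessel wall had 0 of 7 past the threshold in limma and 1 lower at an unadjusted p under 0.05. All 3 Ppif-/- hearts lay below all 3 WT hearts for 4 of the 7 and above them for 0 (background 10.6% and 9.21%). At the nearest hearts these 4 genes stood 0.07 or less apart. The list had a median of -0.14 and a mean level of 7.86 to 7.96 in Ppif-/- hearts and 7.93 to 8.17 in WT hearts. The microfibril gene Mfap5 (-0.33 ± 0.09) and the crosslinking enzyme Lox (-0.53 ± 0.24) had the smallest p-values (adjusted p = 0.169 and 0.405). Without WT heart 2, Lox differed by -0.22. Of 10 fibroblast markers, 1 fell, the growth factor receptor Pdgfra (-0.44 ± 0.06, adjusted p = 0.0246), whose call was lost without any 1 heart (0.0693 to 0.0991) or with unnamed probe sets included (0.0727). Mfap5 stands in that list too, next by p. The fibroblast median was -0.04, and mean levels ran from 9.32 to 9.53 in Ppif-/- hearts and from 9.23 to 9.47 in WT hearts. Of 8 endothelial markers, limma called 0, and the count at an unadjusted p under 0.05 was also 0 (median -0.05, 9.94 to 10.11 in Ppif-/- hearts and 10.03 to 10.12 in WT hearts). The receptor Tek (-0.18) and the adhesion molecule Pecam1 (-0.15) had the smallest p-values there. The part of cell composition in the differences of the members was not tested.

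The hearts carried cardiomyocyte markers at a mean level of 13.53 to 13.55 in Ppif-/- hearts and 13.50 to 13.55 in WT hearts. Of these 9 genes, 0 passed in limma and 1 lay lower at an unadjusted p under 0.05, the calcium release channel Ryr2 (-0.19 ± 0.06, adjusted p = 0.248, and 0.0392 with a variance trend, the only fit in which it passed), with Mybpc3 next (0.08). Of 8 macrophage markers, 1 rose, the lysosomal protein Cd68 (0.56 ± 0.09, adjusted p = 0.0394), and the scavenger receptor Cd163 had the next smallest p (-0.53). The Cd68 call was lost without any 1 heart (0.0551 to 0.145) or over all probe sets (0.124). Macrophage levels averaged 7.92 to 8.03 in Ppif-/- hearts and 7.85 to 7.89 in WT hearts.

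Markers of atria, fat, epicardium and skeletal muscle were read to see what else the hearts held. Of 5 atrial markers, Myl7, Sln and Bmp10 lay below the median of every array in all 6 hearts, and the list averaged 6.58 to 6.77 in Ppif-/- hearts and 6.39 to 6.45 in WT hearts. In that list 0 passed in limma and 1 lay higher at an unadjusted p under 0.05, the natriuretic peptide Nppa (0.68 ± 0.13, adjusted p = 0.0681), with Myl7 next (0.20). Nppa passed with a variance trend (0.0243), among the brighter probe sets (0.0379), with array weights (0.0153) and without WT heart 2 (0.0138). In its 12 other alternative fits it did not pass. All 6 adipocyte markers were below every array median (4.87 to 5.03 in Ppif-/- hearts, 4.97 to 5.01 in WT hearts), in limma no adipocyte gene reached an unadjusted p under 0.05 (0 of 6), and Retn (-0.17) and Lep (-0.13) had the smallest p-values. So were 4 of 5 epicardial and mesothelial markers, of which 0 passed, with 2 higher and 1 lower at an unadjusted p under 0.05; these averaged 5.59 to 5.76 in Ppif-/- hearts and 5.64 to 5.72 in WT hearts, with Wt1 at 0.28 and Msln at 0.21. Of 8 skeletal muscle markers, Mylpf, Myh4 and Myh1 were below every array median, and the list averaged 7.42 to 7.48 in Ppif-/- hearts and 7.61 to 7.67 in WT hearts. The median difference of these 8 genes was -0.03. The 1 that fell was Myl1, an essential light chain of fast-fibre myosin (-1.44 ± 0.10, adjusted p = 0.000555), with Myh4 next (0.14).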

How the data were processed

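Hearts of 3 Ppif-/- and 3 WT mice were each read on 1 array. The authors deposited 1 log2 value for each probe set and array. RMA is the tool that the submitters' processing notes name, which corrects background, normalises between arrays and compresses low signal. The RMA version was not given, and no batch information was used. Gene names came from the platform annotation and were updated by Entrez identifier to the GRCm38.p6 gene table. Of 35557 probe sets, 21789 carried 1 symbol (21698 matched), 1621 several and 12147 none.

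The 23410 with a symbol were fitted with limma 3.58.1 in R 4.3.3 (lmFit, eBayes, 2-sided, Benjamini-Hochberg, threshold 0.05). Differences are Ppif-/- minus WT. A gene with several probe sets is represented by the brightest. Nothing states that replicate hearts were processed apart, beyond their being numbered as hearts. On simulated arrays of this comparison with 23410 probe sets and 200 changed, 52% of changes of log2 size 0.5 and 92% of size 1 were recovered, with 4.97% false calls. That single run used normal noise, independent between probe sets and arrays, so these shares may not carry over to the real arrays.

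Members and further lists (3 of pathways, 10 of cell types; 131.0 of 134.0 genes measured) were chosen with earlier results of these data known; 1 more list is not reported here. In each list up to 4 called genes are named, in order of p, or else (under 2 calls) the 2 genes lowest in p; for Myl9, which had the smallest p among the members, and for Myh11, the 5 nearest genes are named too. The alternatives were a replicate block, other filters, normalisations and variance models, array weights, and leaving out each heart.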

Additional observations from a re-analysis of the deposited data

How the results depend on the processing

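The number of probe sets past the threshold, 254 of 23410 (1.09%), was 160 with the heart number as a replicate block, 405 on the brighter probe sets, 131 over all probe sets, 386 with array weights and 453 with a variance trend, and 131 to 171 when 1 heart was left out. The count of lower members, 2, was 1 with the replicate block, 1 over all probe sets and 1 without any single heart, where Myl9 alone passed; it was 3 with a variance trend and among brighter probe sets. The count of higher members was 0 in each of these limma fits. The median difference of the members stayed between -0.27 and -0.22. Actg2 changed sign, to -0.0044 with arrays centred on their median and ranged from -0.05 to 0.10 when 1 heart was left out. Same-numbered hearts of the 2 genotypes showed little shared deviation (correlations -0.0767, -0.0608 and 0.118 over probe sets, with 2 of 6 hearts nearest to their own number). With 3 hearts per genotype these values cannot settle whether the numbers pair the hearts. With that block the adjusted p of Tagln was 0.0887, of Pdgfra 0.0929 and of Cd68 0.098. Among the named genes, 560 of 600 alternative values kept their direction and side of the threshold. This pooled count includes genes that were not called in any fit. The 27 values that lost a call belonged to Tagln, Pdgfra and Cd68 (8 of 16 each) and to Pdlim3 (3 of 16). A further 9 gained a call and 4 changed sign. On the brighter probe sets, Cnn1 and Actg2 were below the filter and gave no value, so the median over all 10 members was not computed there. RMA compresses differences of dim transcripts, which bears on Cnn1 and Actg2.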

Other observations

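Close relatives of the members, chosen after the members' values were seen, did not pass. Of 19 measured paralogues, 0 passed in limma, and the median difference was 0.03. An unadjusted p under 0.05 was reached by 2 that lay higher and 2 that lay lower (background 6.10% and 6.81%). Those that lay higher, Myh9 and Actb, were already counted among the cytoskeletal targets, as were Acta1, Tagln2, Cnn2 and Cnn3. Actc1 was counted among the cardiomyocyte markers. Myl12a, a regulatory light chain of non-muscle myosin closely related to Myl9, stood at 11.08, 10.89 and 10.81 in Ppif-/- hearts and at 10.90, 10.97 and 10.94 in WT hearts, a difference of -0.01 ± 0.08 (limma adjusted p = 0.977). The related light chain gene Myl12b measured 10.11, 9.95 and 9.82 in Ppif-/- hearts, against 10.19, 10.11 and 10.20 in WT hearts (-0.20 ± 0.09, limma adjusted p = 0.375). Tagln2, the broadly expressed relative of Tagln, differed by -0.01 ± 0.06 (limma adjusted p = 0.963). Smtnl2, a smoothelin-like gene, had the smallest p among them, at 7.14, 7.27 and 7.47 in Ppif-/- hearts and 7.69, 7.69 and 7.64 in WT hearts (-0.38 ± 0.09, limma adjusted p = 0.13). The cardiac kinase Mylk3 differed by 0.03 ± 0.06 (limma adjusted p = 0.918) and the cardiac actin Actc1 by 0.02 ± 0.06 (limma adjusted p = 0.948).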
